A study of Mus musculus with 4 samples.

Results

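The C-type lectin receptors described here are 10 genes, Clec7a, Clec4n, Clec4d, Clec4e, Clec5a, Clec4a2, Clec12a, Clec4a1, Clec4a3 and Clec2d. They were taken by symbol, through their Ensembl identifiers in GENCODE M21 (build GRCm38), from a table of 55471 genes. The table holds raw poly(A) RNA-seq counts of 4 libraries, each from brain cells carrying the surface integrin CD11b, a marker of microglia and other myeloid cells, that were captured on magnetic beads. All 4 libraries belong to 1 group of mice aged 10 to 13 weeks. The mice received PLX5622, an inhibitor of the kinase CSF1R that depletes microglia, for 7 days and were then kept without it for 10 days, 17 days in all. No untreated or drug-only group was analysed here, so the data give levels, their order and the spread between libraries, and no effect of the drug. The labels number the libraries 1 to 4 and do not say whether each came from its own animal, so the p-values below measure only how far these samples differ, and that spread may be technical. Cells that survived the drug and cells that returned after it cannot be told apart.

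C-type lectin receptors are cell-surface proteins with a carbohydrate-recognition fold that bind glycans, lipids or proteins of microbes and of damaged host cells. The activating ones signal through the kinase Syk and the adapter Card9 to NF-kB, either by a tyrosine motif in their own tail, as in Clec7a, or by pairing with the adapter chains FcRgamma (Fcer1g) or DAP12 (Tyrobp). The inhibitory ones carry a tail motif that recruits the phosphatases SHP-1 (Ptpn6) and SHP-2 (Ptpn11). In brain, Clec7a is best known as a gene of disease-associated microglia, whereas several of the others are also expressed by macrophages of the brain borders, monocytes and neutrophils.

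All 10 of the 10 receptors lie on chromosome 6. Of these, 6 fall in 1 run from Clec4a1 to Clec4e (122921848 to 123289870), 3 in a second run from Clec2d to Clec7a (129180615 to 129472779), and Clec5a stands alone at 40574894 to 40585821 (GRCm38). GENCODE M21 classes Clec7a (ENSMUSG00000079293) as a polymorphic pseudogene, a class for genes intact in only some individuals or strains, and its counts were used as deposited. No exon of another gene overlapped an exon of a member. Of the 50-base words in the members' transcripts, 98.0% or more occurred in no other gene's transcripts, except for Clec4a2, where 93.2% did. Clec4a2 shared words with 447 other genes, the largest share (3.85%) with Clec4a4 of the same run, which itself had 4 to 8 counts per library. Clec12a shared words with 75 other genes, although 99.5% of its words were unique. The paralogs were therefore separable by sequence at this word length.

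Sequence upstream of the start sites was read to set the motifs of myeloid and interferon-responsive promoters beside the levels. Motifs were counted in the full 250 bases before the most upstream RefSeq start (GRCm38.p6), which RefSeq gave for 9 of the 10 members. GENCODE exons cover all 250 bases of the Clec12a window, 68 of that of Clec4a2 and 16 of that of Clec5a. The windows of Clec4a2 (from 123122440) and Clec12a (from 129349994) lie inside their GENCODE genes. Those genes start at 123106428 and 129342691, so these windows are not upstream of the whole gene. The motifs GAGGAA (core of the site of PU.1, the myeloid transcription factor), the interferon response element (its match in Clec2d is in capitals below), TGANTCA (AP-1) and TTGCNNAA (C/EBP) were searched on both strands, and no match overlapped one of another motif. GAGGAA occurred in 6 of the 9 windows, against 23.1% of 27025 windows of all genes, and the interferon response element in 1 of the 9 (Clec2d), against 3.05% of all. TGANTCA was in 1 (Clec12a) and TTGCNNAA in 2 of the 9 (Clec12a and Clec4e), against 6.85% and 9.55%. Clec12a, whose window is exonic by GENCODE, was also 1 of the 6 with GAGGAA. The 5 windows below, that of Clec5a without its exonic bases, belong to the receptors with the highest level per length (Clec4a3, Clec5a, Clec7a), the lowest (Clec4e), and the 1 with the interferon element (Clec2d). Each is printed 5′ to 3′ on the strand of the gene, with motif matches of either strand in capitals.
Clec4a3, chr6:122952265-122952514 (+): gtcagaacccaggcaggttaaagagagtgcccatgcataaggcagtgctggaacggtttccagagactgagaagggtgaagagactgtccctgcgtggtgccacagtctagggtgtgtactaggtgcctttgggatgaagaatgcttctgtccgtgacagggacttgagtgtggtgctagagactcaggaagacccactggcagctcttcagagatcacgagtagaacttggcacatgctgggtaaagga
Clec5a, chr6:40585822-40586055 (-): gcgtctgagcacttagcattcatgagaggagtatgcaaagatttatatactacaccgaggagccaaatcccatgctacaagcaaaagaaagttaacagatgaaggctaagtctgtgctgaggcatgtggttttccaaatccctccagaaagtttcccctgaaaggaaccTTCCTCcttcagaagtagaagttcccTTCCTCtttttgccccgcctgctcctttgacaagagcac
Clec7a, chr6:129472786-129473035 (-): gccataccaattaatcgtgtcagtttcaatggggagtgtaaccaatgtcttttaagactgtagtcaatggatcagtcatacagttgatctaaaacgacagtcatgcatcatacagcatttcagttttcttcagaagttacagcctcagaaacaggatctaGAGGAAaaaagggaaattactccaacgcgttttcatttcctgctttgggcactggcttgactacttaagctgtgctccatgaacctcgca
Clec4e, chr6:123289872-123290121 (-): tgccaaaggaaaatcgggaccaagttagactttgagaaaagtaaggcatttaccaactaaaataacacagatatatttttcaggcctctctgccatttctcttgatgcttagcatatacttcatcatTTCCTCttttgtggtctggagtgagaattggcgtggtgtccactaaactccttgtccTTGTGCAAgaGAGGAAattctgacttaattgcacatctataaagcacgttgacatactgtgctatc
Clec2d, chr6:129180365-129180614 (+): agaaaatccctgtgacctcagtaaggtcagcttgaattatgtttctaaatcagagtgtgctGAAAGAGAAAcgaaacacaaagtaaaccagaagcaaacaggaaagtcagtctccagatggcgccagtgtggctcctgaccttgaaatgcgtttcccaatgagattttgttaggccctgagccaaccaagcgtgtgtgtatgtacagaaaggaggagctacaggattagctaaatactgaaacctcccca
The window of Clec4a3, the highest receptor, held none of the 4 motifs. That of Clec4e, the lowest, held GAGGAA at positions -123 to -118 and -56 to -51 from the start and TTGCNNAA at -66 to -59. Clec5a had GAGGAA at -81 to -76 and -55 to -50, both on the opposite strand, Clec7a had it at -90 to -85, and Clec2d had the interferon response element at -189 to -180. These are matches of letters. Binding was not measured.

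The 4 libraries held 23036202 to 24487418 counts. Levels are counts per 1000000 counts (CPM), with TMM factors applied to the library sizes, as means ± SD over the libraries. A floor of 3 counts corresponds to 0.119 to 0.132 CPM, and this floor covers counting error only. As a check of the label, all 12 homeostatic microglia markers reached 1 CPM in every library, with summed levels of 38252 to 46578 CPM, and so did all 10 markers of border-associated macrophages, with 1037 to 1655 CPM. Of the border macrophage sums, Stab1 alone had 723 to 948 CPM. Choroid plexus, endothelial and erythroid genes (5 each) were also present and lowest in library 3, with summed levels there of 3282, 143 and 32.4 CPM against 15764 to 22003, 579 to 667 and 65.8 to 365 CPM in the others. In bulk samples such as these, more cells of a type and more RNA per cell cannot be told apart.

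Of the 10 receptors, 8 reached 1 CPM in every library, against 44.9% of the 27874 genes with any count. Levels ran from Clec5a at 131 ± 25.1 CPM down to Clec4d at 0.913 ± 0.325 CPM (SD, n = 4). Whether the libraries differed by more than genes of like level do was tested for 14112 genes, by the fit of negative binomial counts with 1 common mean in edgeR (the spread test). At an adjusted p under 0.05 it called 0 of the 10 receptors, where 3.28% of all tested genes were called. At an unadjusted p under 0.05 it called 1 receptor (Clec4n), where 9.57% of all were called. A quasi-likelihood variance test called 0 receptors at either level, where 0% of all were called at the adjusted and 4.66% at the unadjusted threshold. Without library 3 the first test called 1, Clec4n (adjusted p = 0.0251, edgeR). The median range over libraries was 0.62 on the log2 scale for the 10 receptors and 0.48 for all tested genes. Of the 10 receptors, 5 were highest in library 1, 4 in library 3 and 1 in library 4, against 34.2%, 28.3% and 20.9% of all tested genes. The lowest library was library 4 for 7 receptors and libraries 1, 2 and 3 for 1 each, against 20.3%, 31%, 19.5% and 29.2% of all. Scaled by total counts, 7 were highest in library 1 and 4 lowest in library 4, and scaled to the homeostatic genes 6 and 4. For 6 of the 10 both were the same under 4 scalings of library size (TMM, total counts, DESeq2 size factors and the homeostatic genes).

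**Figure D1:**
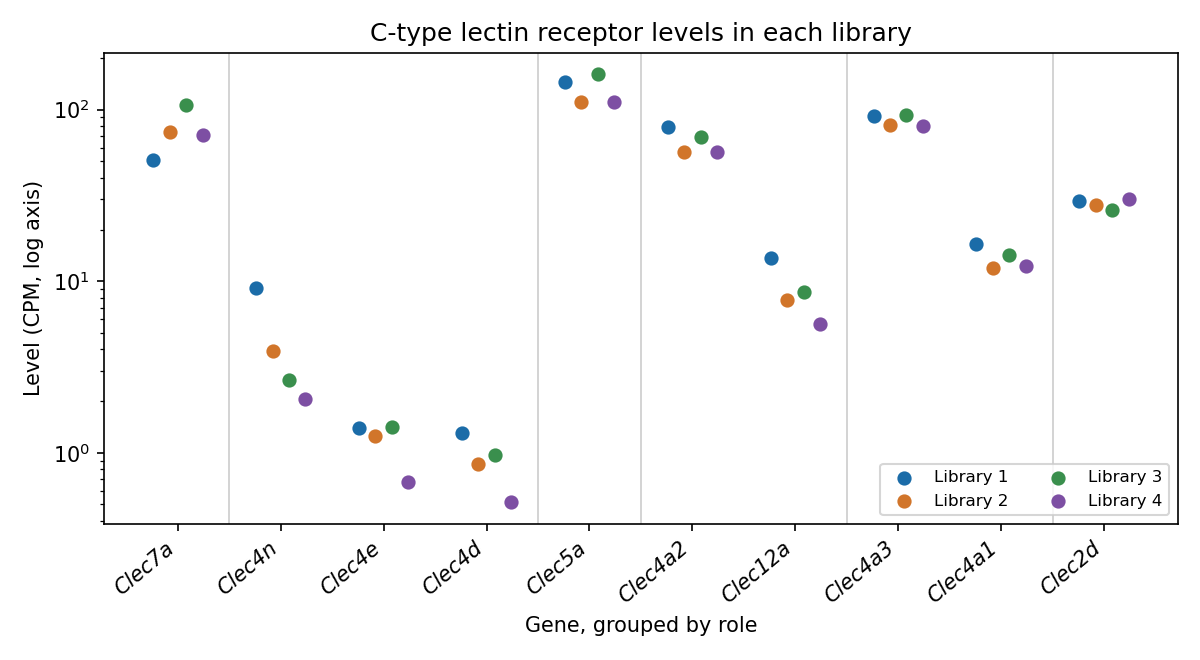
Level of each receptor in CPM (log axis) in libraries 1 to 4, with vertical lines between the role groups (own motif, FcRgamma-paired, DAP12-paired, inhibitory, Clec4a paralogs, ligand of an NK receptor). Clec5a had 110.3 to 160.4 CPM and Clec4d 0.516 to 1.31 CPM, and Clec4n shows the widest spread, 2.06 to 9.14 CPM.

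Among the activating receptors, Clec7a (Dectin-1), which binds fungal beta-glucan, had 50.7, 74.0, 107 and 71.2 CPM in libraries 1 to 4. Library 3 was highest and library 1 lowest, 2.11-fold apart, and libraries 2 and 4 were close together between them. The highest and lowest library were the same under each of the 4 scalings. The spread test gave an adjusted p of 0.564 (edgeR) and did not call the difference, although the log2 range of Clec7a was wider than that of 83.6% of tested genes. The mean was 75.7 ± 23.2 CPM, 65.3 CPM without library 3 and 84.0 CPM without library 1.

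Interferon response genes had the same highest and lowest library as Clec7a. All 13 of 13 were highest in library 3 (12 of 13 when scaled to the homeostatic genes), as were 28.3% of all tested genes, and 11 of the 13 were lowest in library 1, as were 31% of all. Their summed levels were 321, 494, 1097 and 735 CPM, and none was at 0. Among 12 disease-associated microglia genes, a list that leaves out Clec7a, the list median was 5.70, 6.45, 6.71 and 6.27 (log2 of CPM + 0.5) in libraries 1 to 4, the same order as Clec7a. The summed levels of that list, 4123, 3186, 4466 and 3266 CPM, had another order, with library 1 second highest, and 5 members were highest in library 1 and 5 in library 3. The 2 genes of that list that passed the spread test (edgeR), as 3.28% of all tested genes did, were Itgax and Axl. Itgax, an integrin, had 29.0, 59.3, 117 and 80.6 CPM, and Axl, a receptor kinase, had 74.7, 206, 423 and 258 CPM. Their part in the level of Clec7a was not tested. The genes with the profile nearest to that of Clec7a over the 4 libraries, looked up after its values were seen, were H2-T22 (largest difference 0.06 on the log2 scale), Adap1 (0.07) and H2-T23 (0.07). H2-T22 and H2-T23 encode nonclassical MHC class I molecules, and H2-T23 had 98.8, 131, 189 and 139 CPM. In all, 98 of 9306 other genes at a mean of 10 CPM or more lay within 0.2 of Clec7a in every library.

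Clec5a (MDL-1), which signals through DAP12, was the highest receptor by CPM. It had 144, 110.5, 160.4 and 110.3 CPM, so libraries 3 and 1 were above libraries 2 and 4, which were within 1 CPM of each other. The largest ratio between libraries was 1.45-fold, and the adjusted p was 1.00 (edgeR). Its adapter gene Tyrobp had 874, 690, 1031 and 730 CPM, again with libraries 3 and 1 above libraries 2 and 4. The ratio of Tyrobp to Clec5a, both per kilobase of exon, was 34.9, 35.9, 37.0 and 38.1, a mean of 36.5 ± 1.37 (SD, n = 4). Fcer1g had 536, 419, 576 and 430 CPM and was as close to the profile of Clec5a, with a largest difference of 0.06 on the log2 scale for each adapter. Within the wider limit of 0.2, 558 of 9306 genes lay near Clec5a. How many genes came as close as the adapters was not counted. Hcst (DAP10), the second adapter known for Clec5a, was low, at 8.0, 4.92, 7.40 and 6.11 CPM.

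The 3 receptors that pair with FcRgamma were low. Clec4n (Dectin-2), which binds fungal mannans, had 9.14, 3.93, 2.64 and 2.06 CPM from 224, 91, 60 and 52 counts. Library 1 was 3.17 times the mean of the other libraries, and the mean of 4.44 ± 3.23 CPM became 2.88 CPM without it. Clec4n had the widest range of the 10 receptors, 4.43-fold, with an adjusted p of 0.401 (edgeR). Fcer1g was 95.2 to 354 times the level of Clec4n per kilobase, with the lowest ratio in library 1.

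Genes of border-associated macrophages were high in the same library as Clec4n. Of that list, 9 of 10 genes were highest in library 1, as were 34.2% of all tested genes, and the summed levels were 1655, 1199, 1233 and 1037 CPM, with none at 0. Stab1 alone made up 948, 834, 865 and 723 CPM of these sums. Genes of other lists were highest in library 1 too: 5 of 5 erythroid genes (summed 365 CPM against 32.4 to 174 CPM in the others), 4 of 5 tested T and NK cell genes, 4 of 5 oligodendrocyte genes and 5 of 8 monocyte genes. The 3 genes with the profile nearest to Clec4n were Clec10a, a galactose-binding C-type lectin of macrophages (21.5, 9.07, 7.97 and 6.11 CPM), Lyve1, a hyaluronan receptor of perivascular macrophages (61.7, 33.5, 25.5 and 24.1 CPM), and Fcna, a ficolin (24.9, 12.1, 11.4 and 10.04 CPM). Of 9307 genes at a mean of 10 CPM or more, 1 (Clec10a) lay within 0.2 (log2) of Clec4n in every library. Which cells carried Clec4n was not tested.

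Clec4e (Mincle) and Clec4d (MCL), neighbouring genes whose products bind mycobacterial glycolipid and can pair with each other, were near the limit of a quantitative statement. Clec4e had 34, 29, 32 and 17 counts, or 1.39, 1.25, 1.41 and 0.675 CPM. Clec4d had 32, 20, 22 and 13 counts, or 1.31, 0.864, 0.969 and 0.516 CPM. Both were lowest in library 4, at 0.5 and 0.493 of the mean of the other libraries, and neither passed the spread test (adjusted p = 1.00 for each, edgeR). Neutrophil genes had summed levels of 86.3, 88.7, 37.7 and 20.5 CPM, and all 8 tested members of that list were lowest in library 4 (6 of 8 when scaled to the homeostatic genes), as were 20.3% of all tested genes, while Mpo and Elane were at 0 in libraries 3 and 4. Library 4 was also lowest for 7 of 12 homeostatic microglia, 6 of 10 border macrophage and 4 of 5 tested T and NK genes. Scaled to the homeostatic genes, these counts were 0, 1 and 2. Library 3, where neutrophil genes were also low, had 1.41 CPM of Clec4e, and the part of neutrophils in either receptor was not tested.

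**Figure D2:**
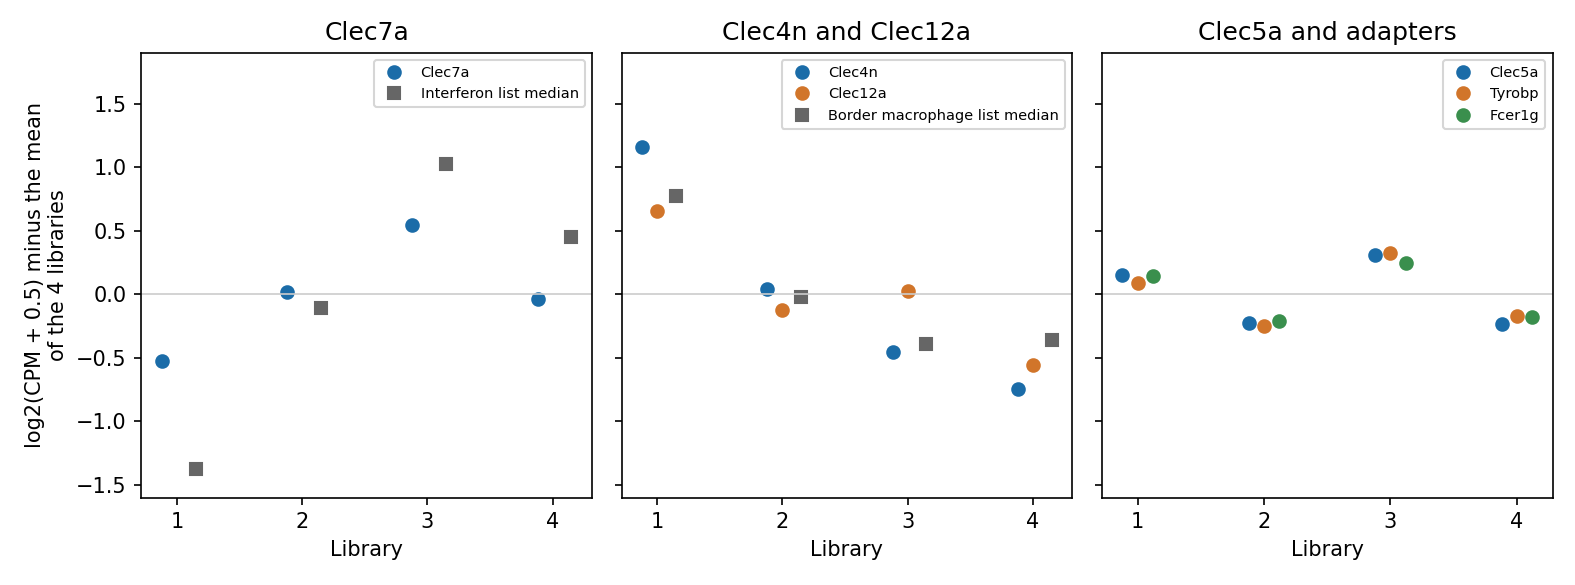
Library profiles as log2(CPM + 0.5) minus the mean of the 4 libraries, for Clec7a with the median of 13 interferon response genes, Clec4n and Clec12a with the median of 10 border macrophage genes, and Clec5a with the adapters Tyrobp and Fcer1g. Clec7a was highest in library 3, Clec4n and Clec12a in library 1, and the largest difference of each adapter from Clec5a was 0.06.

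The inhibitory receptors differed in level and in spread. Clec4a2 (DCIR1), with an inhibitory tail motif, had 78.7, 57.0, 69.5 and 56.9 CPM, 1.38-fold between the highest and lowest library. Clec12a (MICL), an inhibitory receptor for uric acid crystals, had 13.7, 7.73, 8.63 and 5.60 CPM, 2.44-fold, with library 1 highest and library 4 lowest. Neither passed the spread test (adjusted p = 1.00 for each, edgeR). Clec12a was highest in library 1, as were Clec4a2, Clec4a1, Clec4d, Clec4n, 9 of 10 border macrophage genes and 34.2% of all tested genes. Its mean of 8.91 ± 3.42 CPM became 7.32 CPM without that library.

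The summed level per kilobase of both inhibitory receptors was 0.457, 0.346, 0.298 and 0.355 of that of the 5 activating receptors, a mean of 0.364 ± 0.0670 (SD, n = 4). The ratio was highest in library 1, where Clec7a was lowest, and lowest in library 3, where Clec7a was highest. Clec7a is itself part of the activating sum, so this inverse relation is partly built in. In all 4 libraries the activating sum was the larger, at 57.6 to 85.0 CPM per kb against 20.5 to 29.4.

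Clec4a1 (DCIR4) and Clec4a3 (DCIR3), paralogs of Clec4a2 that lack its inhibitory motif, differed by 1.15- and 1.38-fold between libraries, Clec4a1 by the more. Clec4a3 had a mean of 86.4 ± 6.48 CPM and no stable order of libraries, since the highest library was 3, 1 or 4 depending on the scaling. Clec4a1 had 16.4, 11.9, 14.2 and 12.2 CPM. The ratio of Clec4a2 to Clec4a1 was 4.80, 4.78, 4.90 and 4.67 in libraries 1 to 4, an SD of 0.03 on the log2 scale, the smallest of the 45 pairs of receptors. Counting error alone would give about 0.09 at these counts, and the median SD of the 45 pairs was 0.43. The pair that diverged most was Clec7a and Clec4n, with ratios of 5.54, 18.8, 40.5 and 34.5.

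Clec2d (Clr-b) is a ligand for the inhibitory NK cell receptor Klrb1b. It had 29.2, 28.0, 26.1 and 30.0 CPM, the narrowest ratio of all 10 receptors, 1.15-fold. Library 3, in which the interferon genes were highest, had the lowest Clec2d under each of the 4 scalings, although the spread test gave an adjusted p of 1.00 (edgeR). Klrb1b itself had 3.39, 2.16, 1.98 and 1.87 CPM, in a cell isolate in which 3 of 9 T and NK cell genes reached 1 CPM in every library.

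Levels of different genes were compared per kilobase of exon. The order was Clec4a3 (65.1 ± 4.88 CPM per kb), Clec5a (34.2 ± 6.53), Clec7a (28.7 ± 8.81), Clec2d (23.3 ± 1.38), Clec4a2 (22.4 ± 3.62), Clec4a1 (8.77 ± 1.33), Clec4n (3.13 ± 2.27), Clec12a (1.61 ± 0.619), Clec4d (0.571 ± 0.203) and Clec4e (0.238 ± 0.0694). Clec4a3 alone made up 34.7% ± 1.05 of the summed level, and the first 3 together 68.0%. Within libraries, Clec4a3 exceeded Clec5a by 0.95 ± 0.17 on the log2 scale, in 4 of 4 libraries. For Clec5a over Clec7a (0.28 ± 0.46), Clec7a over Clec2d (0.25 ± 0.51) and Clec2d over Clec4a2 (0.07 ± 0.26) the mean gap was smaller than its SD. By the length of all exons, Clec5a was nevertheless above Clec7a in 4 of 4 libraries. The levels were 37.5 against 19.2 CPM per kb in library 1, with smaller gaps in the others. Clec7a was above Clec2d in 3 libraries and Clec2d above Clec4a2 in 2. The other 5 neighbour gaps, from 0.78 to 1.72, had the same sign in all 4 libraries. With 4 libraries, the smallest p of the exact two-sided permutation test by sign flips is 0.125 (0.161 after adjustment over the 9 gaps), so no gap could pass 0.05. By the length of the longest coding transcript, Clec2d and Clec4a2 (-0.17) and Clec4n and Clec12a (-0.15) changed places, so the order of each of these pairs depended on the length used. The mean gap of Clec5a over Clec7a fell to 0.11 by that length, and the gap no longer had the same sign in every library.

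**Figure D3:**
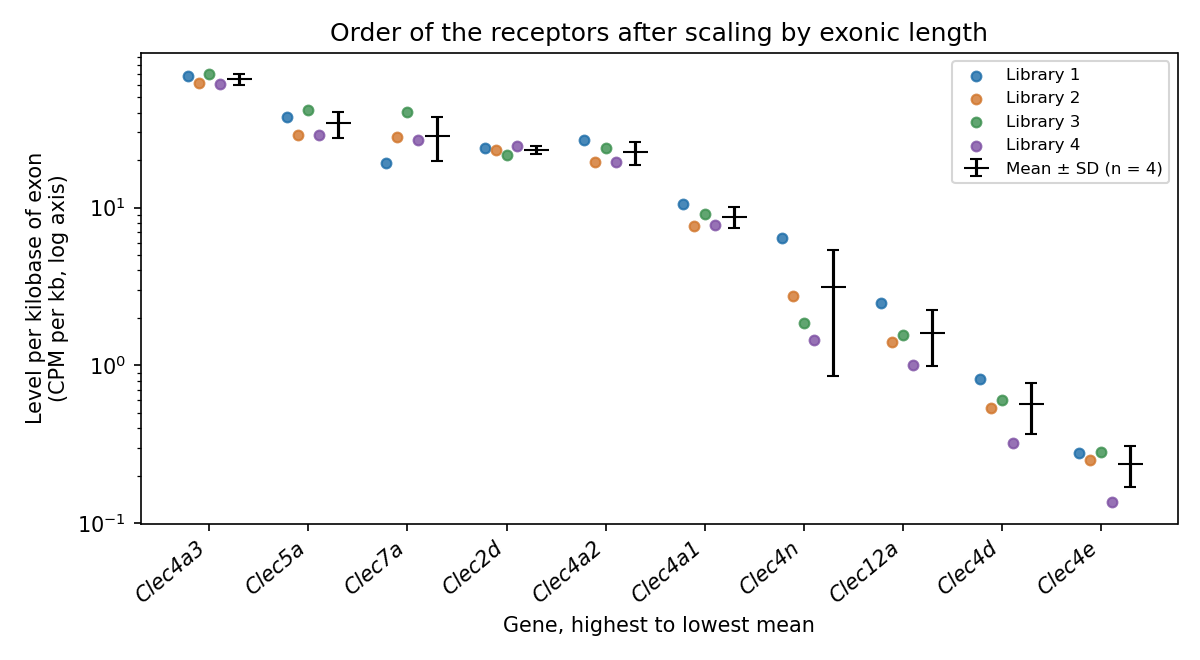
Level per kilobase of exon (log axis) in each library with the mean ± SD (n = 4), genes ordered by mean. Clec4a3 stands above all others in every library, the next 4 genes lie between 19.2 and 41.8 CPM per kb, where Clec7a overlaps the other 3, and Clec4d and Clec4e lie under 1 in every library.

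Neighbouring genes differed widely in level. Only protein-coding genes and the receptors described here were counted in each run. In the run from Clec4a1 to Clec4e, 368 kb with 9 genes, Clec4a3 had 65.1 CPM per kb, while Clec4a4 next to it had 0.321 ± 0.0856, Clec4b1 2.30 ± 1.07 and Clec4b2, with 1 count over the 4 libraries, 0.00937. In the run from Clec2d to Clec7a, 292 kb with 9 genes, both end genes had over 20 CPM per kb, and Clec12a, with 1.61, was the next highest. Between them, Clec12b had 0.0569, Clec9a 0.12, Clec1b 0.206, Cd69 0.552 and Clec1a 0.793 CPM per kb, and 4922502D21Rik had 0 counts. Clec9a is a receptor of cross-presenting dendritic cells and Clec1b of platelets, and their means were 0.39 and 1.05 CPM.

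**Figure D4:**
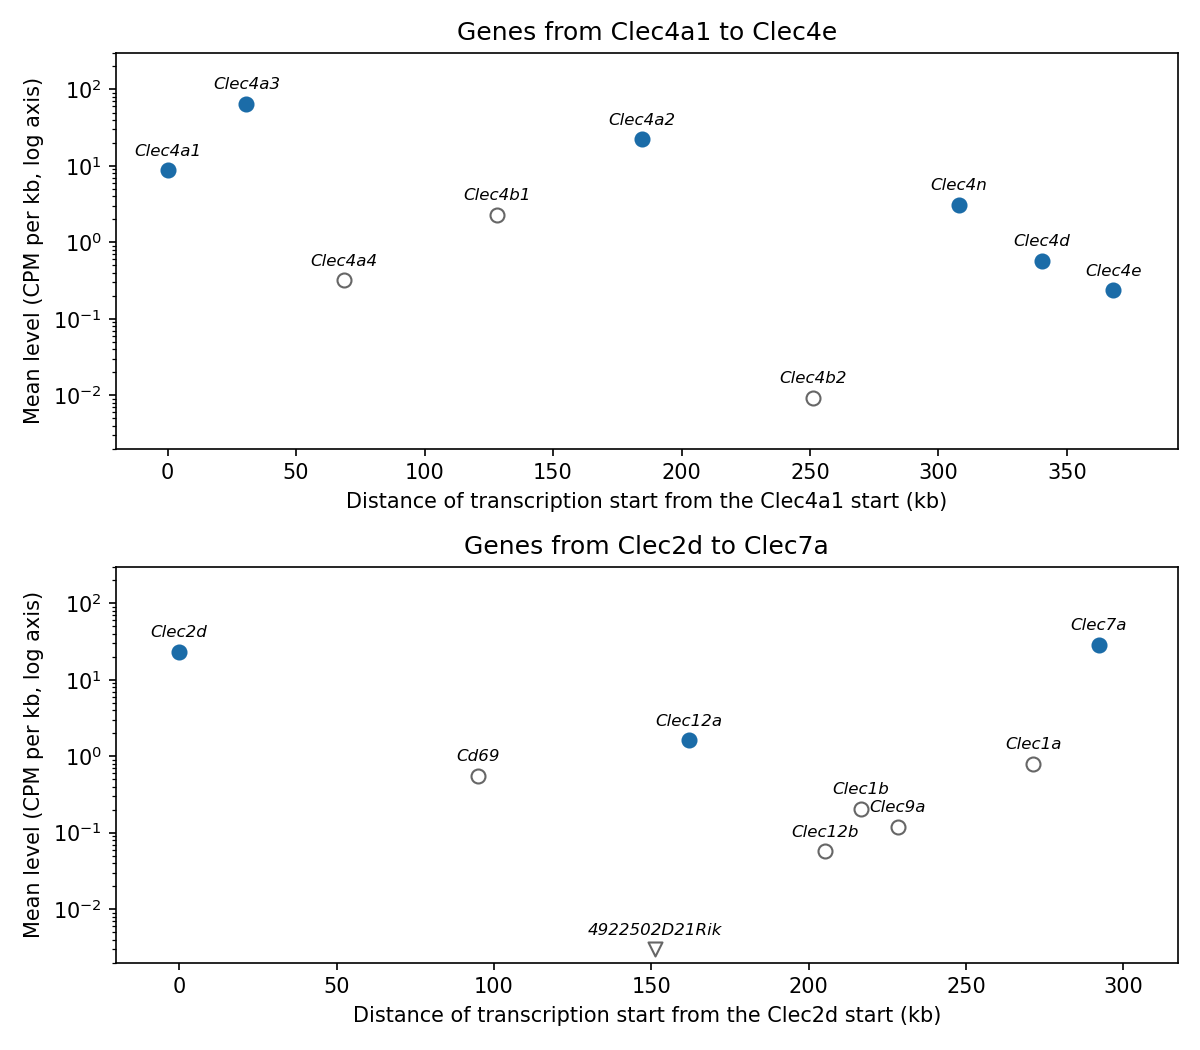
Mean level per kilobase of exon (log axis) against the distance of each start site from the first gene of the run, in kb. Filled circles are the receptors described here, open circles other protein-coding genes of the run, and the open triangle at the axis a gene with 0 counts. Clec4a3 at 65.1 and Clec4b2 at 0.00937 CPM per kb lie within 1 run.

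The other C-type lectin genes were mostly low. Of 39 such genes, 18 reached 1 CPM in every library, 3 (Clec2g, Clec3a and Clec4f) had no count in any library and 20 could be tested for spread, of which 3 were called (edgeR) and 0 by the quasi-likelihood test. The 2 tests called 3.28% and 0% of all tested genes. By CPM, the highest were the mannose receptor Mrc1 at 175 ± 77.9 and the collagen receptor Mrc2 at 109 ± 24.0. Cd93, a receptor of endothelial and myeloid cells, came next at 41.5 ± 12.5 CPM. Per kilobase, Mrc1 (27.5 CPM per kb) and Mrc2 (16.4) were again the highest, but Cd209a (11.2) was above Cd93 (6.21). Mrc1 had 291, 148, 141 and 121 CPM (adjusted p = 0.0490, edgeR). Cd209f, a DC-SIGN relative, had 10.4, 2.42, 1.63 and 1.03 CPM (adjusted p = 0.00877, edgeR). Both were highest in library 1, like 5 of the 10 receptors and 34.2% of all tested genes, and Mrc1 is also 1 of the 10 border macrophage genes. Without library 1 both lost the call (adjusted p = 1.00 for each, edgeR), as did both without library 4 (0.12 for Cd209f, 0.270 for Mrc1) and Mrc1 without library 2 (0.0737). Thbd, the thrombomodulin of endothelium, had 35.1, 42.7, 10.7 and 36.5 CPM (adjusted p = 0.0153, edgeR) and was low in library 3, as the endothelial genes were. It lost the call without library 3 (adjusted p = 1.00, edgeR) and without library 2 (0.128). Cd72, a C-type lectin best known from B cells and named here after its values were seen, had 18.4, 25.2, 42.2 and 26.8 CPM (adjusted p = 0.756, edgeR). Like Clec7a it was highest in library 3 and lowest in library 1, as were 28.3% and 31% of all tested genes.

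The signalling genes shared by these receptors were present throughout. All 22 signalling genes reached 1 CPM in every library, and 0 of 22 passed the spread test in edgeR (0 at an unadjusted p under 0.05, and 0 by the quasi-likelihood test). In edgeR, 3.28% of all tested genes passed, and 9.57% at the unadjusted threshold. Per kilobase, 10 of the 26 signalling and partner genes exceeded Clec4a3, the highest receptor. Tyrobp had 1246 ± 232 and Fcer1g 561 ± 88.8 CPM per kb, followed by the Src-family kinase Lyn at 153 ± 16.6 and the lipid phosphatase Inpp5d (SHIP1) at 144 ± 18.2. SHP-1 (Ptpn6) had 322, 338, 376 and 300.2 CPM, Inpp5d 931, 1158, 1249 and 1042 CPM, and Ptpn6 was 4.27 to 6.19 times Clec4a2 per kilobase. Syk had 293, 374, 418 and 340.2 CPM, and was 1.10 to 1.63 times Clec7a per kilobase. It was lowest in library 1 and highest in library 3, as Clec7a was (scaled to the homeostatic genes, library 2 was highest). Of the 22 signalling genes, 13 were highest in library 3 and 13 lowest in library 1. The shares of all tested genes were 28.3% and 31%. Scaled to the homeostatic genes, the counts of signalling genes were 2 and 13. Card9 had 188, 174, 184 and 154 CPM, or 76.3 ± 6.64 CPM per kb. By CPM, the lowest signalling genes were Hcst at 6.61 ± 1.37 and Vav3 at 2.76 ± 0.42, while Vav1, a relative of Vav3, had 435 ± 42.9. Per kilobase, Vav3 (0.46 ± 0.0703 CPM per kb) and Malt1 (3.24 ± 0.508) were the lowest.

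**Figure D5:**
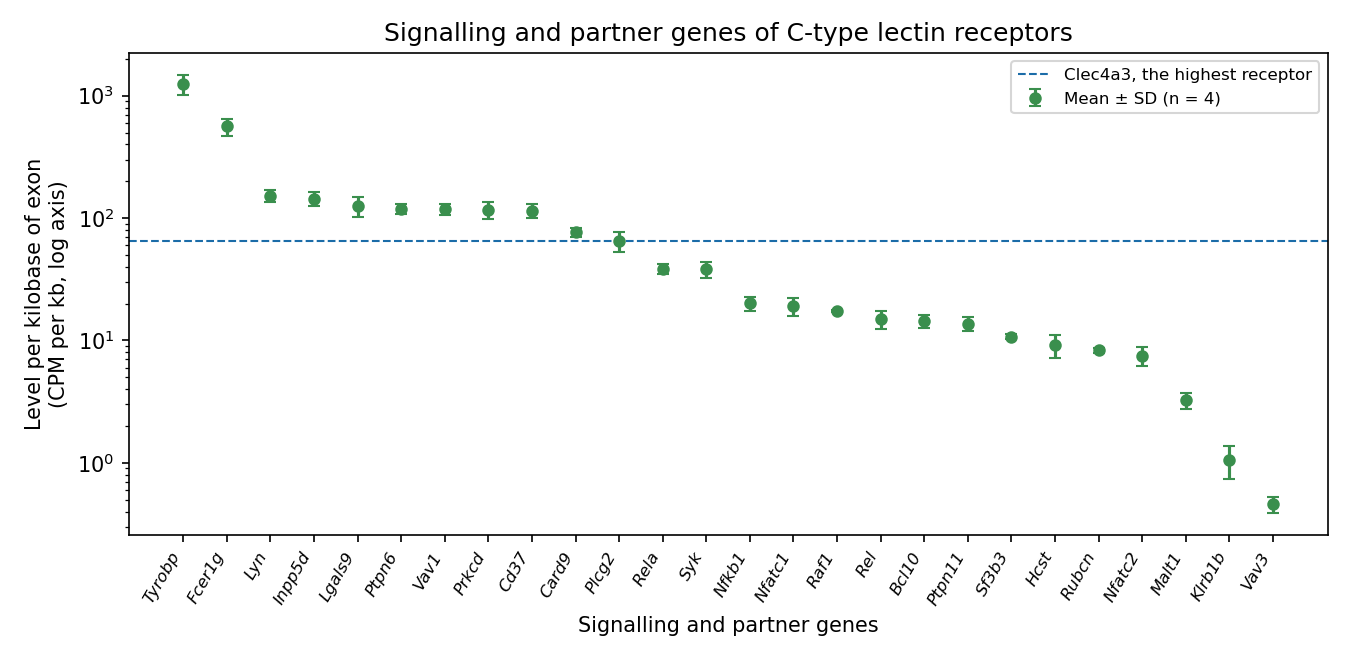
Mean level per kilobase of exon ± SD (n = 4, log axis) of 22 signalling and 4 partner genes, with a dashed line at Clec4a3, the highest receptor. Tyrobp and Fcer1g lie highest, 10 genes lie above the line, and Klrb1b and Vav3 are the lowest.

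Of the 4 partner genes, Lgals9, a galectin reported to bind Clec7a, had 267 ± 50.2 CPM, Cd37, a tetraspanin that holds Clec7a at the cell surface, had 405 ± 54.9 CPM, and Sf3b3, which encodes the spliceosome protein SAP130 that Clec4e binds when dying cells release it, had 117 ± 5.87 CPM. None of the 4 passed the spread test in edgeR (0 at an unadjusted p under 0.05, and 0 by the quasi-likelihood test), where edgeR called 3.28% of all tested genes, and 9.57% unadjusted. Lgals9 and Cd37 were, like Clec7a, lowest in library 1 and highest in library 3, as were 31% and 28.3% of all tested genes.

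Genes that activating receptors can induce varied by another pattern. Of 13 such genes, 10 could be tested and 3 passed the spread test in edgeR, where the quasi-likelihood test called 0. The shares of all tested genes were 3.28% and 0%. Il1b, the interleukin, had 74.8, 143, 49.0 and 46.3 CPM (adjusted p = 0.00173, edgeR), and the transcription factors Egr2 and Egr3 had 46.3, 90.7, 27.4 and 30.6 CPM and 28.9, 95.1, 20.5 and 18.5 CPM (adjusted p = 0.00313 and 8.24e-07, edgeR). All 3 were highest in library 2, and all 3 lost the call without it (adjusted p = 1.00, edgeR). Il1b also lost it without library 4 (adjusted p = 0.0513, edgeR). No receptor was highest in library 2, which was the highest library for 7 of the 10 testable target genes and for 16.5% of all tested genes. By CPM, the highest targets were the chemokine Ccl3 at 392 ± 141, Nlrp3, an inflammasome sensor, at 121 ± 17.4 and Il1b at 78.4 ± 45.3. Per kilobase, the mean of Il1b (41.1 ± 23.7 CPM per kb) was above that of Nlrp3 (29.9 ± 4.29).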

How the data were processed

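The authors deposited raw counts per Ensembl gene for 4 libraries, made from 300 ng of total RNA after poly(A) selection with a strand-marking kit, per the labels' protocols. The submitters' processing notes name featureCounts 1.6.5, bcl2fastq 2.20.0.422, STAR 2.7.2b and the build GRCm38. Which annotation release, strand option and rule for multi-mapping reads were used is not given in the sources used here. Of 55471 genes, 55230 matched GENCODE M21 by identifier. The others stayed in the totals.

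CPM used TMM factors of 0.963 to 1.03 (edgeR 4.0.16, R 4.3.3). Exonic length was the union of a gene's exons. Genes kept by filterByExpr (minimum count 10) were fitted with an intercept and the trended dispersion. The residual deviance was set against a chi-square distribution, with Benjamini-Hochberg adjustment and a threshold of 0.05, and the fit was tested on simulated data. The alternative set the quasi-likelihood variance against its trended prior. Scalings by total counts, by DESeq2 1.42.0 size factors and, for levels, to 12 homeostatic genes, no filter, other lengths and each library left out were also run. Named genes were all members, 8 fixed adapters, effectors and partners with values per library, list genes past the threshold, the 3 highest other lectins and targets, and the 3 genes nearest in profile to the member with the widest range among those with at least 50 counts in every library. Members and lists were chosen with earlier results of these data known, and Sf3b3 entered the partner list after the levels of other genes had been seen.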

Additional observations from a re-analysis of the deposited data

Results flagged for a closer look

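In a group of 4, a value was picked out where its gap to the nearest of the others exceeded Dixon's 95% critical share of the whole range, which chance does for about 1 in 20 groups. That rate does not hold for the 6 of the 24 genes looked at that had entered because they passed the spread test, and the 3 below are among those 6. None of the 10 receptors met the criterion. Cd209f stood apart in library 1 (0.851 of the range) with 10.4 CPM against 1.03 to 2.42 CPM in the others. Mrc1 also stood apart in library 1 (0.842) with 291 CPM against 121 to 148 CPM. Egr3 stood apart in library 2 (0.864) with 95.1 CPM against 18.5 to 28.9 CPM.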

How the results depend on the processing

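The count of receptors past the spread test was 0 under both other scalings, without the filter and in the quasi-likelihood test, and 0 to 1 when each library was left out. The mean of Clec4n fell from 4.44 to 2.88 CPM without library 1. Over all genes, 463 passed, 0 in the quasi-likelihood test, and 425, 276, 106 and 258 without libraries 1, 2, 3 and 4. For target genes, 3 passed, 0 in the quasi-likelihood test and 0 to 4 without single libraries. For other lectins, 3 passed, 0 in the quasi-likelihood test and 1 to 3 without single libraries. Mrc1 was not called with DESeq2 size factors (adjusted p = 0.0874) or without the filter (0.11), and the cause was not tested. In the order of levels, the length of the longest coding transcript reversed Clec2d over Clec4a2 (-0.17) and Clec4n over Clec12a (-0.15). It narrowed Clec5a over Clec7a from 0.28 to 0.11. Without length scaling, Clec4a3 over Clec5a (-0.59), Clec2d over Clec4a2 (-1.20), Clec4n over Clec12a (-1.18) and Clec4d over Clec4e (-0.39) reversed, by construction. Clec2d over Clec4a2 ran from -0.0194 to 0.15 when each library was left out. The inhibitory to activating ratio stayed at 0.333 to 0.416. Scaling to the homeostatic list shifted library 3 by -0.16 and library 4 by 0.15 (log2). Depth limits Clec4d and Clec4e, with 13 to 34 counts per library. No paired analysis was possible because there is 1 group.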
